A study of Rattus norvegicus with 2 samples.

Results

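C-type lectins and the immunoglobulin-like receptors that myeloid cells carry were measured in rat neural stem cells (NSCs) grown with or without ectodermal mesenchymal stem cells (EMSCs). The members are the genes whose symbols begin with Clec, Siglec, Cd300, Lilr, Pilr or Slamf, together with Cd84, Cd33, Cd22, Sirpa and Cd47. They number 73 of the 22093 genes that have a symbol of their own on the array. For 4 members the level is the average of 2 probe sets. The NSCs were isolated from whole brains of SD rat embryos at day 13.5 and grown as neurospheres for 10 days. In the co-cultured group the neurospheres were then kept for 14 days on a layer of EMSCs from rats transgenic for green fluorescent protein, in medium with serum, and the NSCs were recovered by fluorescence-activated sorting. The mono-cultured control NSCs were kept alone for 14 days, and the labels describe neither a sort nor a medium for those days. Each condition is 1 sample on 1 array, so no difference below has a replicate check, no p-value was computed, and co-culture cannot be told apart from the sort, from the medium or from differences between single cultures.

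Levels are log2 values made with RMA, a method that corrects background, normalizes by quantiles and summarises the probes of a gene. Differences are given as co-culture minus mono-culture, so that a negative value means a lower level in co-culture and 1 unit is 2-fold. Levels of different genes come from different probes and are not compared. The array holds 1153 negative control probe sets, and their 95th percentile, 6.64 on the log2 scale, is called the negative control level, and a dimmer value cannot be told from background by brightness alone. Negative controls also set the noise of dim values: the co-cultured value was lower by 2-fold or more in 110 of them (9.54%) and higher in 38 (3.30%), with the lowest difference at -2.86. The NSC and astrocyte marker list exceeded the negative control level in 7 of 12 genes in mono-culture and 6 in co-culture. Of these 12 genes 4 were lower in co-culture by 2-fold and 0 higher, with a median difference of -0.42. The astrocyte filament gene Gfap differed by -2.95, the glutamate transporter gene Slc1a3 by -2.50, Fabp7 by -1.95 and the water channel gene Aqp4 by -1.43, while the stem cell factor Sox2 was 8.83 in mono-culture and 8.69 in co-culture.

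Myeloid cells, which include the microglia of the brain, sense sugars, lipids and neighbouring cells through paired families of activating and inhibitory receptors. Activating members signal through an immunoreceptor tyrosine-based activation motif (ITAM), which lies on the adaptors Tyrobp and Fcer1g or, as a single-tyrosine form called hemITAM, in the receptor's own tail, and which recruits the kinase Syk. Inhibitory members carry an inhibition motif (ITIM) that recruits the phosphatases Ptpn6 and Inpp5d. Most of these genes lie in clusters of recent duplicates, so probes of near-identical neighbours may share signal.

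At a difference of 2-fold or more, 22 of the 73 members (30.1%) had lower levels in co-cultured than in mono-cultured NSCs and 0 had higher levels, whereas 3.23% of all genes were lower by that measure and 2.93% were higher. The lower members came from each of the families: 7 of 32 C-type lectins, 4 of 9 Siglecs, 1 of 11 CD300 receptors, 1 of 4 LILR receptors, 6 of 9 PILR receptors, 2 of 6 SLAM receptors, and Sirpa of the pair Sirpa and Cd47. The other 51 members lay within 2-fold, between -0.97 and 0.58. The median over all 73 members was -0.17, with an interquartile range from -1.58 to 0.13, against 0 for all genes. Most members were dim on both arrays, as were most genes: 61 of the 73 members exceeded the negative control level on neither. It was exceeded on at least 1 array by 12 members and by 4959 of all 22093 genes.

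A difference of 16-fold or more (4 on the log2 scale) was seen in 6 members, Clec4a3, Clec7a, Cd84, Clec4a1, Cd33 and Lilrb4, against 0.195% of all genes. Together, 9 members differed by more than the lowest negative control. The last of these, Clec4a2, held rank 116 from the lowest among all genes, so many other genes differed by as much. Of the 73 members 12 exceeded the negative control level in mono-culture and 2 in co-culture. Those 2 were Sirpa and Cd47, and the other 10 exceeded it in mono-culture only, which 3.63% of all genes did. The reverse pattern was found in 0 members and in 2.94% of all genes. In 21 of the 22 lower members the co-cultured level lay below the negative control level, so the size of those differences depends on the background. When levels below the negative control level were raised to it, 6 members remained at least 2-fold lower, namely Clec7a, Cd33, Sirpa, Clec4a3, Cd84 and Clec4a1, beside 0.851% of all genes. A filter on the mean of both arrays at the median gene level of 4.97 kept 18 members, 13 of them lower by 2-fold and 0 higher, beside 4.88% and 4.51% of all genes it kept. Of these 13 members 11 had a co-cultured level below 4.97 and passed through the mono-cultured array alone, so that share follows from the filter and nothing is read from it. At the negative control level the filter kept 2 members, of which 1 was lower and 0 higher, beside 4.23% and 4.81%.

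**Figure D1:**
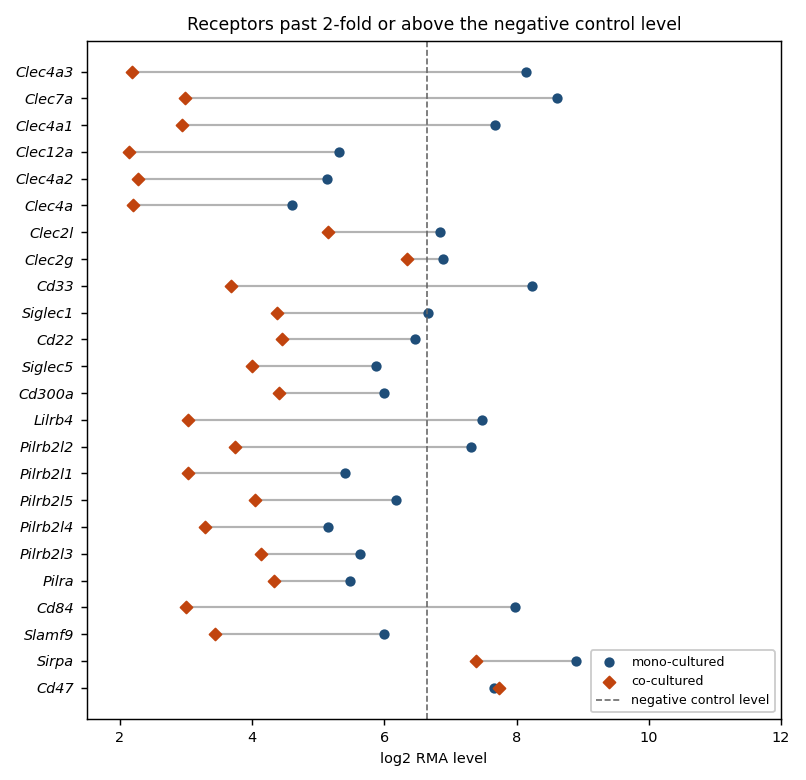
Log2 RMA level of 24 receptors on the mono-cultured (circle) and the co-cultured (diamond) array, 1 array each, for members that differed by 2-fold or exceeded the negative control level (dashed line, 6.64). Genes were chosen by the size of their difference in either direction or by brightness. That choice fixes that most paired points lie apart, but not on which side. Over all 73 members 46 were lower, 25 higher and 2 equal. Sirpa and Cd47 are the genes with both points to the right of the line.

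**Figure D2:**
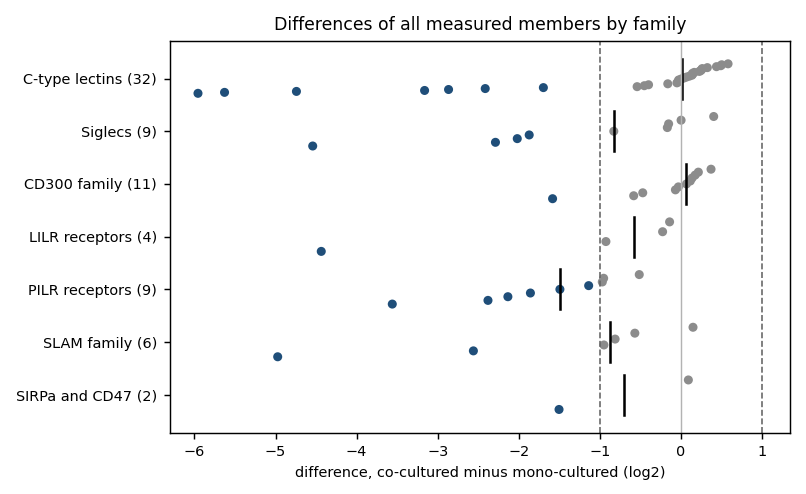
Difference in log2 level, co-cultured minus mono-cultured, for each of the 73 members (points) by family, with the number of genes in brackets and the family median as a black bar. Dashed lines mark 2-fold; the blue points to the left of the lower line are the 22 lower members, and no point lies to the right of the upper line.

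The hemITAM lectin Clec7a encodes dectin-1, a receptor for fungal beta-glucan. Its level was 8.62 in mono-culture and 2.99 in co-culture, a difference of -5.63. With the co-cultured level raised to the negative control level it was 3.93-fold. The other hemITAM lectins were dim on both arrays and differed little. Clec1b, the podoplanin receptor of platelets, was 2.28 in mono-culture and 2.41 in co-culture, and Clec9a, a dendritic cell receptor for the actin of dead cells, was 3.08 and 3.25.

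The Clec4a group consists of relatives of the dendritic cell immunoreceptor, which in humans carries an ITIM. In co-culture the level was lower by 2-fold or more in all 4 measured genes of the group. Clec4a3 was 8.15 in mono-culture and 2.19 in co-culture, and Clec4a1 was 7.68 and 2.94. Clec4a2 was 5.14 against 2.27 and Clec4a was 4.61 against 2.19, so both lay below the negative control level on both arrays. Of 4 adaptor-coupled lectins, 3 of which lie in the same chromosomal cluster, 0 passed 2-fold. Their levels in mono-culture were 1.82 to 2.96, so they had little room to be lower. The groups were also formed after the values were seen, so nothing is read from the contrast between them. Clec4e, which encodes the mycobacterial glycolipid receptor Mincle, had the same level of 2.59 on both arrays, and its neighbour Clec4d was 2.96 in mono-culture and 2.50 in co-culture. Clec4b2 differed by -0.03, and Clec5a, a receptor that pairs with Tyrobp, by -0.40.

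The Clec4 genes lie side by side on chromosome 4 in the order Clec4a1, Clec4a3, Clec4a2, Clec4a, Clec4b2, the pseudogene Clec6a-ps1, Clec4d and Clec4e, in the RefSeq annotation of the GRCr8 build. The 4 lower genes are the first 4 of these 8, and the remaining 4, all dim on both arrays, differed by -0.45 to 0.49. The sequences before the starts of the neighbours Clec4a2 and Clec4a are shown because they share the longest run among the compared pairs of this cluster. The other pairs of the Clec4a group shared runs of 8 to 10 bases. Over all clusters, 20 of 158 pairs shared a run of 20 bases or more. All of them were PILR pairs except Clec4a2 with Clec4a and Cd300cl1 with Cd300c2. Over 226 aligned bases of the 250-base windows of Clec4a2 and Clec4a, 182 (80.5%) were identical. The capitals mark their longest common run, 21 bases (RefSeq, GRCr8, plus strand, chr4:157934346-157934595 for Clec4a2 and chr4:158100365-158100614 for Clec4a).
Clec4a2: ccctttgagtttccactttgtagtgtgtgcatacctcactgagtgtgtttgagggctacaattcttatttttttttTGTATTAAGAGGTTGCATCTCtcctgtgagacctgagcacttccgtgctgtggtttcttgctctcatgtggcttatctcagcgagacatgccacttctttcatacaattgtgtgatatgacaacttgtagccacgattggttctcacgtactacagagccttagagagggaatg
Clec4a: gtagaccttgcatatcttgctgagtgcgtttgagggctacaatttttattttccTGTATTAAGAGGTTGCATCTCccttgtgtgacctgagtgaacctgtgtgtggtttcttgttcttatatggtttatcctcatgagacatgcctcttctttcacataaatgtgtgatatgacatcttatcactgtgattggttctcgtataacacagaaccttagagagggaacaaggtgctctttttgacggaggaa

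A separate cluster on chromosome 4 holds 12 members from Clec2d2l3 to Clec7a, of which Clec7a and Clec12a were lower and 10 lay within 2-fold. Clec12a, an inhibitory receptor of myeloid cells that binds uric acid crystals, was 5.31 in mono-culture and 2.15 in co-culture, while its neighbour Clec12b was 2.67 and 2.51. Most genes of the Clec2 group, whose products are ligands of natural killer cell receptors, lie here too. Of 7 Clec2 genes 1 was lower, Clec2l, which lies elsewhere on the chromosome and is known in humans as a lectin of the brain. Clec2l was 6.84 in mono-culture and 5.15 in co-culture. Clec2g, the other Clec2 gene above the negative control level on an array, was 6.89 and 6.35. The Clec2 genes Clec2d, Clec2d2 and Clec2dl1 share 1 probe set and were not analysed here.

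The endocytic lectins Clec10a, Clec4f, Clec4g and Clec4m, the first a galactose lectin of macrophages and the others best known from liver, differed by 0.10 to 0.32, with 0 of 4 past 2-fold. The remaining 8 lectins, a mixed group that includes the pseudogene Clec6a-ps1, also had 0 past 2-fold and a median of 0.20. Clec11a, a secreted growth factor of bone, was 4.55 in mono-culture and 5.12 in co-culture, and this difference of 0.58 was the highest of all 73 members. Clec14a, an endothelial receptor, was 4.21 and 4.24, and Clec16a, which acts in autophagy rather than in sugar binding, was 6.03 and 6.10. The 25 C-type lectins within 2-fold spanned -0.54 to 0.58.

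**Figure D3:**
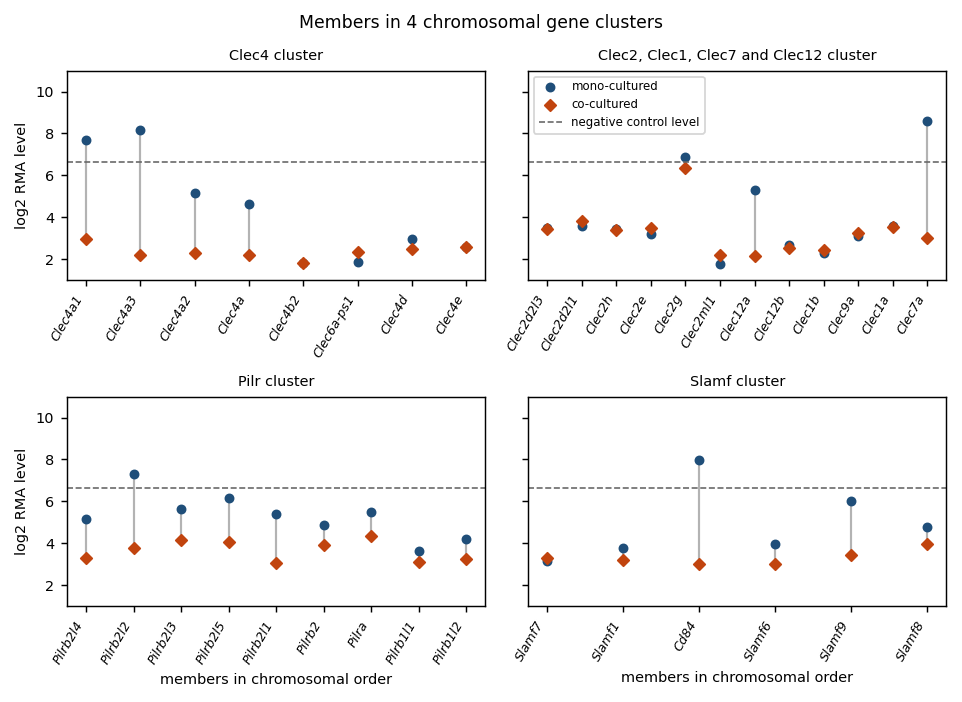
Log2 RMA level on both arrays (circle mono-cultured, diamond co-cultured, 1 array each) for members of 4 gene clusters, in their order along the chromosome in GRCr8 and not to genomic scale. Neighbours can differ in their bars, as Clec4a (difference -2.41) and Clec4b2 (-0.03) do, or Cd84 (-4.97) and Slamf6 (-0.95); the dashed line is the negative control level.

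Siglecs bind sialic acids on neighbouring cells, and most of them carry ITIMs. Of 9 measured, 4 were lower by 2-fold in co-culture, 5 lay within 2-fold and the median difference was -0.83. Cd33, an inhibitory Siglec of myeloid cells, was 8.23 in mono-culture and 3.69 in co-culture, a difference that was 3.01-fold with the co-cultured level raised to the negative control level. Siglec1, the macrophage adhesion receptor sialoadhesin, was 6.66 against 4.37. It barely exceeded the negative control level in mono-culture, and with the co-cultured level raised to that level its difference was -0.02. Cd22, an inhibitory receptor of B cells that microglia also carry, was 6.47 in mono-culture against 4.45. Siglec5 was 5.87 against 4.0. Siglech, which marks microglia in the mouse, was dim on both arrays, at 2.51 in mono-culture and 2.91 in co-culture, and Siglec15, an osteoclast receptor, was 5.52 and 5.35. Cd33 and Siglec5 lie in a cluster of 5 members on chromosome 1, whose other members Siglec8, Siglec10 and Siglecl1 differed by -0.83, -0.15 and 0.

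The CD300 receptors bind lipids such as phosphatidylserine on dying cells. Of 11 measured, Cd300a, an inhibitory member, was the 1 gene lower by 2-fold, at 5.99 in mono-culture and 4.40 in co-culture. The family median was 0.07, and 0 of the 11 genes exceeded the negative control level on either array. The probe sets of Cd300lf, another inhibitory member, differed by -0.13 and -0.82. Cd300lb, which pairs with Tyrobp, differed by 0.21.

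The LILR and PILR receptors are immunoglobulin-like receptors in activating and inhibitory forms. Lilrb4, an inhibitory receptor with ITIMs, was 7.47 in mono-culture and 3.03 in co-culture, a difference of -4.44. With the co-cultured level raised to the negative control level it was -0.83, short of 2-fold. Its neighbours Lilrb3 and Lilra5 differed by -0.93 and -0.14, and Lilrc2 by -0.23. The single probe set that the annotation gives to both Lilrb2 and Lilrb3 was left out.

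All 9 PILR genes were lower in co-culture, 6 of them by 2-fold, beside 45.1% of all genes that were lower by any amount. Their median difference was -1.49. Pilrb2l2 was 7.31 in mono-culture and 3.75 in co-culture and was the PILR gene that exceeded the negative control level. Pilrb2l1 was 5.41 against 3.03, Pilrb2l5 was 6.18 against 4.04, and Pilrb2l4 was 5.15 against 3.30. Pilrb2l3 differed by -1.49. Pilra, the inhibitory receptor for sialylated proteins that pairs with the activating Pilrb genes, was 5.48 against 4.34. Pilrb2, Pilrb1l2 and Pilrb1l1 differed by -0.97, -0.95 and -0.52, all within 2-fold. These genes are near copies on chromosome 12, and how their probes divide signal among the copies was not tested. The 250 bases before the start of Pilrb2l1 are shown with the run of 248 bases that it shares with the window of Pilrb1l2 in capitals (RefSeq, GRCr8, minus strand, chr12:23398134-23398383).
Pilrb2l1: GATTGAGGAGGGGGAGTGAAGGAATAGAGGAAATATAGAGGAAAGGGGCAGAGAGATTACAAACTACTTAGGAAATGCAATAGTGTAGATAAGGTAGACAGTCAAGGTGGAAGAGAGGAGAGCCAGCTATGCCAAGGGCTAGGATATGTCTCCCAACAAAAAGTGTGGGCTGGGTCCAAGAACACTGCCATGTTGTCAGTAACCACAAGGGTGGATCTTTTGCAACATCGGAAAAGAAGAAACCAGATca
The differences of these 2 genes, -2.38 and -0.95, thus lie beside almost identical upstream windows.

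SLAM receptors bind their own kind on other leukocytes. Cd84 was 7.97 in mono-culture and 3.00 in co-culture, and with the latter raised to the negative control level the difference was 2.52-fold. Slamf9, a SLAM receptor of macrophages, was 6.00 against 3.44. The other 4 SLAM genes lay within 2-fold. Slamf6, Slamf8 and Slamf1 differed by -0.95, -0.81 and -0.57, and Slamf7, found on plasma cells and natural killer cells, by 0.15. The 6 genes share a cluster on chromosome 13.

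Sirpa and Cd47 form a receptor and ligand pair in which Cd47 on a cell restrains phagocytes that carry Sirpa. Sirpa, which neurons express as well as myeloid cells, was 8.89 in mono-culture and 7.39 in co-culture, a 2.84-fold difference between levels that both exceed the negative control level. Cd47 was 7.65 in mono-culture and 7.74 in co-culture. A list of 11 measured genes was made for ligands of these receptors and includes the member Cd47. Not every gene on it is a ligand of a member, for example Cd200, whose receptor Cd200r1 is no member. On this list 1 gene was lower by 2-fold and 2, Cd200 among them, were higher. Cd24, a ligand of a human Siglec, was 8.42 in mono-culture and 6.33 in co-culture. Cd200, a neuronal restraint on microglia, was 5.79 and 8.16, and the matrix protein gene Thbs1, whose product binds Cd47, was 5.21 and 10.87. The Pilra ligand gene Npdc1 differed by 0.68, and the Clec1b ligand Pdpn was 9.89 in mono-culture and 9.68 in co-culture.

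The adaptors and enzymes through which the receptors signal were lower in part. Of 15 measured genes of the activating pathway 9 were lower by 2-fold and 0 higher, with a median of -2.51. Tyrobp was 9.36 in mono-culture and 4.47 in co-culture, Fcer1g was 7.73 and 4.55, and Syk was 6.38 and 3.87. The scaffold Lcp2 was 8.50 against 3.89 and the kinase Lyn 8.0 against 4.42. Card9, Bcl10 and Malt1, which form the complex that carries the signal from Syk onward, differed by -0.20, -0.22 and -0.31. Of 9 inhibitory and SLAM partners 3 were lower. The phosphatase Ptpn6 was 8.44 in mono-culture and 4.62 in co-culture, Inpp5d 7.16 and 3.88, and the SLAM adaptor Sh2d1b 4.82 and 3.07. Their more widely expressed relatives Ptpn11 and Inppl1 differed by 0.35 and -0.08, and the kinase Fyn was 9.05 in mono-culture and 9.18 in co-culture.

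**Figure D4:**
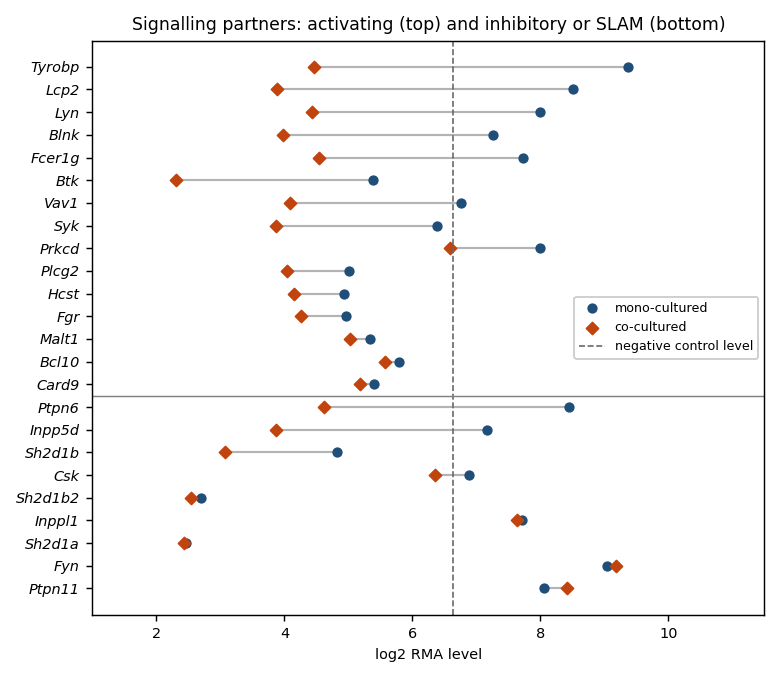
Log2 RMA level on the mono-cultured (circle) and co-cultured (diamond) array, 1 array each, of 15 activating signalling genes above the line and 9 inhibitory or SLAM partners below it. Tyrobp, Lcp2 and Ptpn6 cross the negative control level (dashed) between the arrays, whereas Fyn, Inppl1 and Ptpn11 stay to its right on both.

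Receptors of the same structural classes outside the member list were mixed. Of 36 other C-type lectin domain receptors, 4 were lower and 3 higher by 2-fold, with a median of 0.17. The macrophage mannose receptor Mrc1 was 6.40 in mono-culture and 3.85 in co-culture, whereas its relative Mrc2, which takes up collagen, was 5.27 and 7.63. Colec12, a scavenger receptor, was 4.85 and 7.0, Cd93 was 5.64 and 3.50, and the pericyte lectin Cd248 differed by 0.93. Of 16 other myeloid immunoglobulin-like receptors 6 were lower and 0 higher, with a median of -0.50. Trem2, the lipid receptor of microglia, was 8.03 in mono-culture and 4.47 in co-culture. Cd200r1, the receptor for Cd200, was 5.47 against 3.06, Pira2 5.25 against 3.02 and Havcr2 4.33 against 2.71.

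Enzymes that make sialic acid ligands for Siglecs differed less. Of 23 measured, 2 were lower by 2-fold, 0 were higher and the median was 0. The polysialyltransferase St8sia4 was 5.49 in mono-culture and 3.87 in co-culture, and St3gal6 was 7.21 and 6.09. St3gal2 and St6galnac2 differed by 0.82 and 0.80.

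Most markers of microglia and macrophages were also lower in co-culture. Of 19 measured markers 17 were lower by 2-fold and 0 higher, with a median of -4.02. The 2 within 2-fold were the microglial genes Sall1, which differed by -0.70, and Tmem119, which differed by 0.21. The sum of the marker levels on a linear scale was 9273 in mono-culture and 667 in co-culture. Such a sum is weighted to its brightest genes and includes background. Csf1r was 9.78 in mono-culture and 4.0 in co-culture, and Ptprc, which marks all leukocytes, was 7.12 and 2.85. On the co-cultured array 1 marker, C1qa, exceeded the negative control level, at 7.16 against 10.39 in mono-culture. The part of these cells in the differences of the members was not tested. In bulk RNA, fewer cells of a type and less RNA per cell cannot be told apart. Of 12 mesenchymal markers, the class of the feeder cells, 11 were higher by 2-fold and 0 lower, with a linear sum of 1120 in mono-culture and 11995 in co-culture. Lum was 3.30 and 8.50, and Col1a1 6.48 and 11.23. Their part in the result was not tested.

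Lists of other immune cells and of endothelial cells did not show the same shift, but nearly all their genes were dim on both arrays. Of 11 T and NK cell markers 1 was lower by 2-fold, Cd4, which rat macrophages also carry, at 7.80 in mono-culture and 3.71 in co-culture, and the other 10 lay below the negative control level on both arrays. Of 6 B cell markers 0 were lower and 1, Ebf1, was higher, with levels of 4.04 and 5.98. Ebf1 is also expressed in mesenchymal cells. Of 9 dendritic cell markers 0 passed 2-fold, and Batf3 differed by -0.47. Of 11 granulocyte and mast cell markers the cytokine receptor gene Csf3r was lower, at 6.30 against 4.17, and of 9 endothelial markers Pecam1 was lower, at 5.58 against 4.10. These last 4 lists had medians of 0.19, -0.29, 0.11 and -0.02. On either array, the negative control level was exceeded by 0 B cell, 1 dendritic cell, 0 granulocyte and mast cell and 0 endothelial markers. Genes this dim have little room to be lower, so their small differences say little about these cells.

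**Figure D5:**
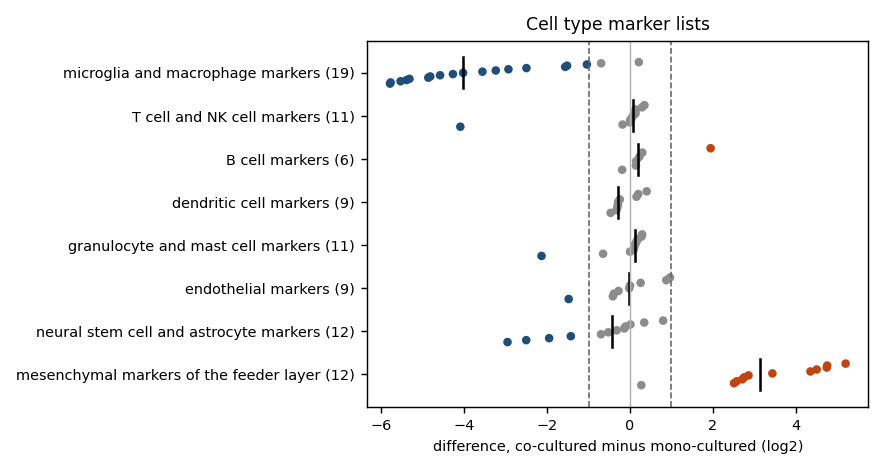
Difference in log2 level, co-cultured minus mono-cultured, of each marker gene (points) in 8 lists, with the number measured in brackets and the median as a black bar; dashed lines mark 2-fold. Microglia and macrophage markers lie mostly to the left (median -4.02) and mesenchymal markers mostly to the right (median 3.15). The other immune lists cluster near 0 apart from Cd4, Csf3r and Ebf1, but nearly all their genes were dim on both arrays.

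A promoter sequence was given for 62 of the 73 members, and 3 short motifs were searched on both strands in the 250 bases before the start. The letters AGGAAGT, a site of the type bound by the myeloid factor PU.1 and other ETS proteins, were found in 4 of 20 lower members, in 10 of 42 members within 2-fold and in 6.99% of all 27457 promoters. Lower and other members thus held it at like shares, 20% and 23.8%. An interferon response element, searched as a pair of GAAA repeats with 2 bases between them, was found in 0 of 20 and 4 of 42 members and in 3.29% of all promoters. The letters TGANTCA, of AP-1 sites, were found in 1 of 20 and 5 of 42 and in 6.36% of all. None of these motifs contains another, and a match is only a match of letters. Slamf9, with AGGAAGT at 2 positions, and Pilrb2l2 are shown as lower members that hold it, with the motif in capitals (RefSeq, GRCr8, plus strand, chr13:87474077-87474326 for Slamf9, and minus strand, chr12:22971612-22971861 for Pilrb2l2).
Slamf9: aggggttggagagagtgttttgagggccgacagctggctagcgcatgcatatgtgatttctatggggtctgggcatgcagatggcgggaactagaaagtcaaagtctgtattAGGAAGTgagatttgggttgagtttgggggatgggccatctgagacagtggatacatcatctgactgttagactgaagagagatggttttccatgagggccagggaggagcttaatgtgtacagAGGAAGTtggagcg
Pilrb2l2: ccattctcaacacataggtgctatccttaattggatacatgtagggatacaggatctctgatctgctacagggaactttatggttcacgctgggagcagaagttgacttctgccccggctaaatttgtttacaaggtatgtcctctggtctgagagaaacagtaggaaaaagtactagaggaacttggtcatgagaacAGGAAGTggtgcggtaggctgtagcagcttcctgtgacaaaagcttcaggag
In Slamf9 the matches begin 138 and 14 bases before the start, and in Pilrb2l2 the match begins 52 bases before it. Clec4a3, Clec7a, Cd84, Clec4a1, Cd33 and Lilrb4, the members that differed by 16-fold or more, held none of the 3 motifs in this window.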

How the data were processed

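The deposited values are log2 levels per probe set, and RMA is named in the submitters' processing notes; no source used here gives the software version, the genome build or the annotation release. Quantile normalization hides changes shared by most genes. Of the 70580 values per array, 23446 probe sets had 1 symbol in the platform annotation, 505 with several were left out, and 44891 transcript clusters are unnamed here. Probe sets were averaged per gene. No filter on brightness was used for the main counts, since a filter passed through 1 array favours genes that differ. With 1 array per group, differences of 2-fold or more were counted beside the same share of all genes, with no test. The spread between probe sets of 441 genes, an SD of 0.24 on the log2 scale, describes technical error inside the arrays only. It was taken from probe sets with a mean at or above the median gene level, and most members are dimmer. The differences of the negative controls had an SD of 0.65. Members and lists were chosen with earlier results of these data known, and the C-type lectins were grouped by role after their values were seen. Named are members past 2-fold or above the negative control level, a fixed set of members and partners, and up to 4 genes per list with the largest absolute differences; others were added after their values were seen. Gene order and promoters are from RefSeq (GRCr8), where all 73 members were found. The counting was tested on simulated data. Alternatives were other scalings, brightness filters, probe set rules, raised dim levels and thresholds of 1.5-fold and 4-fold. Python 3.11.15, numpy 2.4.6 and pandas 2.3.3 were used.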

Additional observations from a re-analysis of the deposited data

How the results depend on the processing

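With 73 members measured, 22 were lower by 2-fold and 0 higher, and 0 were higher under every alternative run. The brightness filters, the rule of 1 probe set, the raised dim levels and the 4-fold threshold cannot add a higher member. Under those settings the 0 follows from the main count and is no check of it. The count of lower members was 22 after median centring or renewed quantile normalization, beside 3.17% and 3.1% of all genes. It was also 22 with the brightest probe set (3.3% of all genes) or only genes with 1 probe set (3.29%). Each lower member has 1 probe set, and the probe sets of members with 2 all lay within 2-fold. Neither probe set rule could therefore change the count. The count of lower members was 26 after removal of a loess trend (3.16%), 28 at 1.5-fold (7.14%) and 15 at 4-fold (1.04%). It was 13 of 18 members with a mean at or above the median gene level (median difference -2.08), 1 of 2 with a mean at or above the negative control level (median -0.71), and 6 with dim levels raised, by construction of these alternatives. Of the 13 members, 11 passed that filter through the mono-cultured array alone, so their share and median follow from it. The median of all members lay between -0.24 and 0 under the other settings. Of 27 named members, 23 moved by more than the spread between probe sets when dim levels were raised, and 0 reversed. Raising dim levels to a common floor can shrink a difference but cannot reverse it, so the absence of reversals follows from the step. No paired analysis was possible because each group has 1 sample. Brightness over background limits the size of all differences except those of Sirpa and Cd47.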
